A study of Glycine max with 8 samples.

Results

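Flanking peaks were the peaks found in 1 ChIP replicate that lay beside a region found in both. Chromatin immunoprecipitation followed by sequencing (ChIP-seq) was done on embryos of soybean cultivar Williams 82 at the mid-maturation stage, dissected from seeds of 200 to 250 mg, with an antibody against a peptide of the GLYMA.08G357600 protein. The study had 4 ChIP and 4 input libraries, each group from 2 biological replicates sequenced on 2 lanes, and every group came from the same cultivar, stage and tissue with no treatment or altered genotype. Each ChIP replicate had 1 peak list, which the labels name for both of its lanes, and lanes were not treated as replicates. A shared region joined peaks of the lists that overlapped by at least 1 bp, and a flanking peak overlapped no peak of the other list and had its summit at most 2000 bp from the start or end of a shared region. Members were thus selected on the positions of peaks in both lists. The rule took 1518 of the 39581 peaks in both lists, out of 7640 unmatched peaks, and left 6122 unmatched peaks farther away. Since overlap and distance chose these peaks, counts and distances are descriptions. No test was run on any value here, because each replicate gave 1 list and peaks of a list are not replicates. Intervals given with percentages (Wilson 95%), with differences of percentages (Newcombe 95%) and with medians (exact binomial 95%) cover counting error only and treat peaks as independent.

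A ChIP-seq peak marks a stretch of DNA where collected fragments pile up above a local background, and its summit is the place of highest pileup. A protein that binds DNA may sit at several places within one regulatory stretch, and whether a weak place is found depends on sequencing depth and on the limit of the peak caller. A place without a peak is therefore not a place shown to be unbound. The fold enrichment of each peak is the authors' own value, the summit pileup over the local background, as the peak caller writes it. No nucleotide sequence or gene is given for these peaks, because neither the labels nor the lists name the genome build behind the coordinates.

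The replicate 1 list held 1085 flanking peaks among 5251 unmatched peaks, or 20.7% (interval 19.6% to 21.8%). The replicate 2 list held 433 among 2389, or 18.1% (16.6% to 19.7%). The share was 2.54 percentage points higher in replicate 1 (interval of the difference 0.615 to 4.40). As a share of all peaks, flanking peaks made up 5.12% of the 21196 in replicate 1 and 2.36% of the 18385 in replicate 2. They lay equally often on either side, 759 before the start and 759 beyond the end of the nearest shared region. Scaffolds outside the 20 chromosomes held 5 of the replicate 1 flanking peaks and 4 of those of replicate 2. A further 10 and 2 unmatched peaks lay on scaffolds with no shared region at all and were counted among those farther away.

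The summits of flanking peaks lay a median of 956 bp from the edge of the nearest shared region in replicate 1 and 837 bp in replicate 2. From summit to summit the medians were 1257 bp and 1137 bp. The gap between the edges of peak and region had medians of 809 bp and 703 bp, and the smallest gaps were 14 bp and 7 bp. Unmatched peaks thinned out with distance in both lists. In replicate 1, 346 lay at 500 to 1000 bp, 268 at 1000 to 1500 bp and 254 at 1500 to 2000 bp, and beyond the limit there were 194 per 500 bp at 2000 to 3000 bp and 88.0 per 500 bp at 5000 to 10000 bp. In replicate 2 the corresponding counts were 138, 109 and 74, then 66.0 and 39.9 per 500 bp. The 2000 bp limit thus lay on a slope and not at a break. The first 500 bp held 217 and 112 unmatched peaks, a stretch shortened by the widths of the peaks themselves, of which the narrowest were 223 bp and 221 bp.

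**Figure D1:**
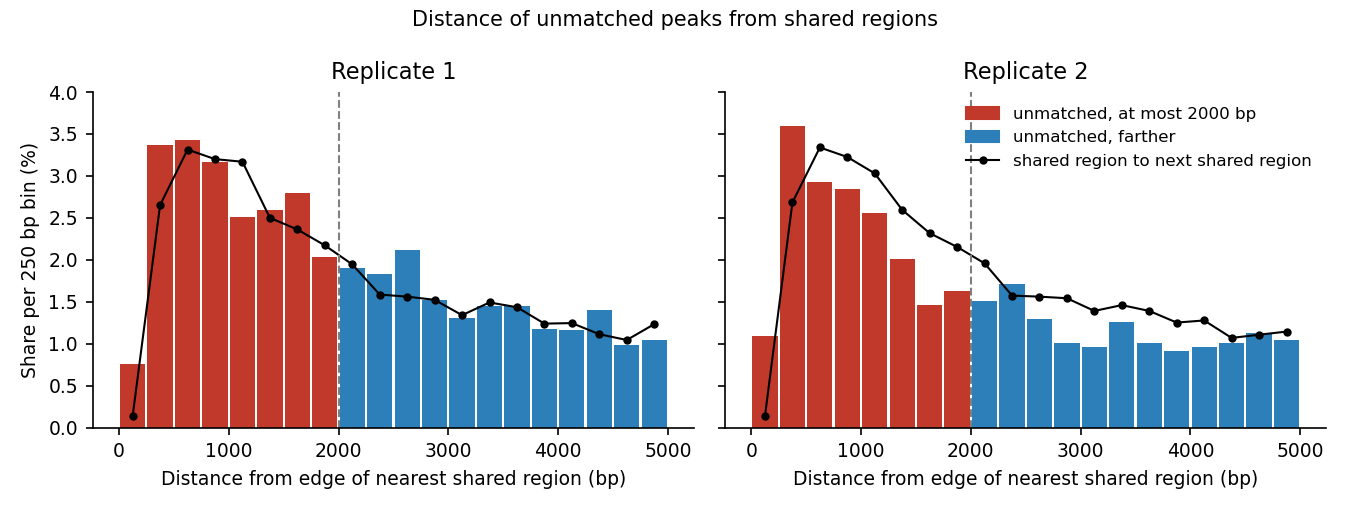
Share of unmatched peaks in 250 bp bins of distance from summit to the edge of the nearest shared region, for each list (bars, red up to 2000 bp and blue beyond). The black line gives the same for shared regions and the next shared region; both decline across the dashed 2000 bp limit, and beyond it the replicate 2 bars are mostly lower than the line.

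The share of peaks lying near a shared region was similar for unmatched peaks and for shared regions themselves. Measured from the same kind of summit, 19.5% of the 15872 shared regions had another shared region within 2000 bp (18.9% to 20.1% in either list). The difference between unmatched peaks and shared regions was 1.15 percentage points in replicate 1 (−0.0912 to 2.42) and −1.36 in replicate 2 (−2.98 to 0.345). Both intervals include 0, which does not show that the shares are equal. The shares by distance class were less alike than these totals. Within 500 bp lay 4.13% of unmatched replicate 1 peaks and 4.69% of unmatched replicate 2 peaks, against 2.79% and 2.82% of shared regions. Farther out, unmatched replicate 2 peaks had the lower shares, with 5.78% against 6.57% at 500 to 1000 bp, 4.56% against 5.63% at 1000 to 1500 bp and 3.10% against 4.47% at 1500 to 2000 bp. Replicate 1 had 6.59% against 6.51%, 5.10% against 5.67% and 4.84% against 4.54% in these classes. Shared regions are wider, so their summits lie farther from an edge by construction. The stretches within 2000 bp of a shared region, region bodies left out, made up 56.4 Mb or 6.00% of the chromosome span outside shared regions, a span that includes sequence to which reads may not align. The span of a chromosome was taken up to the end of its last peak in either list, since no chromosome lengths were used.

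Flanking peaks had fold enrichments close to those of the other unmatched peaks in replicate 1 and slightly lower ones in replicate 2. In replicate 1 their median fold enrichment was 4.27 (interval 4.15 to 4.28, quartiles 3.68 and 4.87), against 4.28 (4.28 to 4.29, quartiles 3.76 and 4.89) for the 4166 unmatched peaks farther away. In replicate 2 the medians were 4.65 (4.54 to 4.72, quartiles 4.11 and 5.24) and 4.76 (4.69 to 4.81, quartiles 4.20 and 5.34) for the 1956 farther away. The intervals of the medians touched in replicate 1 and overlapped narrowly in replicate 2. Matched peaks stood well above both, with medians of 6.93 and 7.24, a description only, since matching chose the sets. The median −log10 q of flanking peaks was 7.03 in replicate 1 and 6.86 in replicate 2, against 7.32 and 7.04 farther away.

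**Figure D2:**
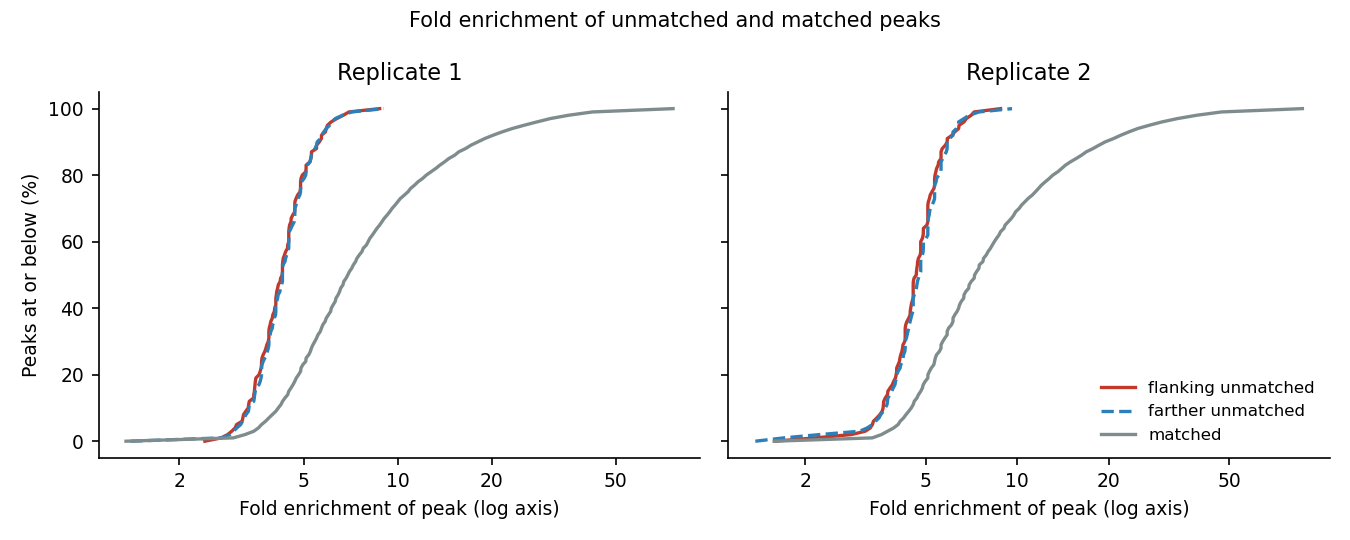
Percentage of peaks at or below each fold enrichment (log axis) for flanking unmatched peaks, unmatched peaks farther away and matched peaks, in each list. The first pair of curves nearly coincide, with medians of 4.27 and 4.28 in replicate 1 and 4.65 and 4.76 in replicate 2, while matched peaks reach 76.2 and 87.1.

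The other readouts of flanking peaks were also close to those of unmatched peaks farther away. The median summit pileup was 22 overlapping fragments against 23 in replicate 1 and 18 against 19 in replicate 2. The local background, the pileup the peak caller expected at the place, had a median of 4.16 fragments against 4.21 in replicate 1 and 2.98 against 2.95 in replicate 2. The lowest background of a list was shared by 32.5% of flanking peaks and 31.8% of farther ones in replicate 1 (intervals 29.8% to 35.4% and 30.4% to 33.2%), and by 33.9% and 33.6% in replicate 2 (29.6% to 38.5% and 31.6% to 35.8%). Median widths were 277 bp and 275 bp in replicate 1, and 262 bp and 257 bp in replicate 2.

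Flanking peaks, like unmatched peaks farther away, had pileups near the low end of what either list holds. Across shared regions the median ratio of the replicate 1 to the replicate 2 pileup was 1.25. On that scale the median replicate 1 flanking peak, with 22 fragments, corresponds to 17.6 fragments in replicate 2, a level at or under which lay 9.39% of all replicate 2 peaks, whose lowest pileup was 12. The median replicate 2 flanking peak, with 18 fragments, corresponds to 22.5 fragments in replicate 1, with 17.6% of replicate 1 peaks at or below it and a lowest pileup of 14. The ratio comes from shared regions only, and whether it holds at peaks without a partner was not tested. The actual pileup of the other replicate at these places is not in the lists.

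The share of peaks without a partner differed little between peaks with and without another shared region nearby. Among all replicate 1 peaks, 25.9% of the 4196 with another shared region within 2000 bp were unmatched, against 24.5% of the 17000 without, a difference of 1.35 percentage points (−0.104 to 2.84). In replicate 2 the shares were 12.2% of 3559 and 13.2% of 14826, a difference of −1.03 (−2.20 to 0.210). In the quintile of peaks with the lowest fold, the shares were 61.5% and 57.8% in replicate 1, a difference of 3.75 points (0.0762 to 7.34), but 34.0% and 34.8% in replicate 2, a difference of −0.763 (−4.57 to 3.18). In the next quintile they were 44.4% and 44.4% in replicate 1, and 21.1% and 23.9% in replicate 2. In the lowest quintile the differences of the replicates thus had opposite signs and overlapping intervals. In the highest quintile, 0 of 907 replicate 1 peaks and 0 of 785 replicate 2 peaks with a shared region nearby were unmatched (upper interval limits 0.422% and 0.487%), as were 0 of the 3333 and 0 of the 2889 peaks without one.

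**Figure D3:**
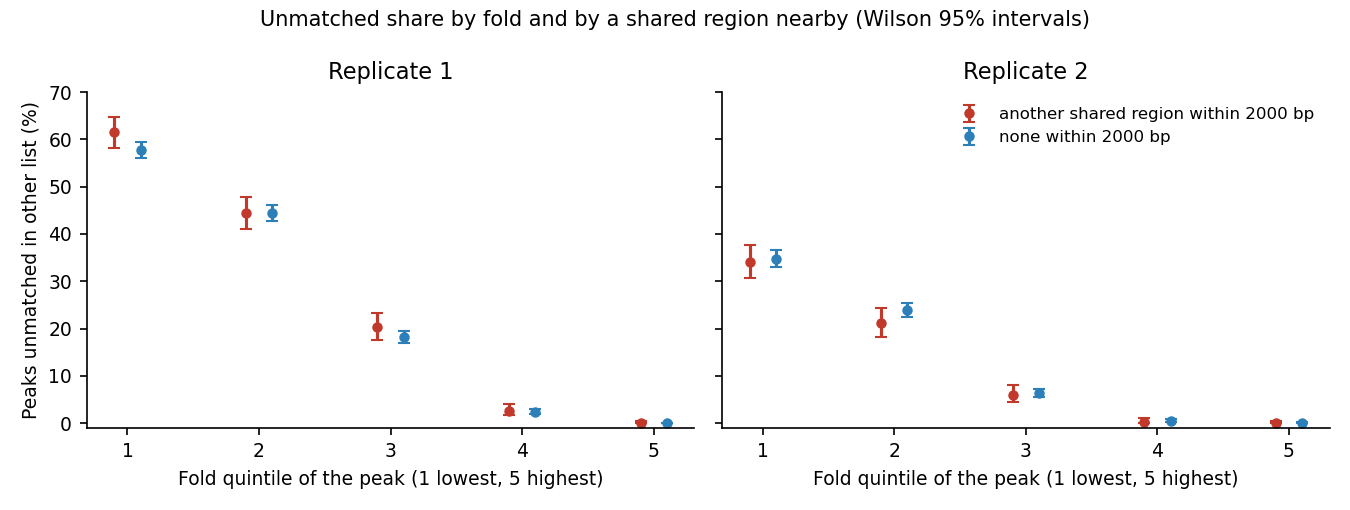
Percentage of peaks with no partner in the other list, by fold quintile of the peak, for peaks with another shared region within 2000 bp (red) and without (blue); bars are Wilson 95% intervals. Red and blue points fall together with strength, from 61.5% and 57.8% in the lowest quintile of replicate 1 and 34.0% and 34.8% in that of replicate 2.

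The shared regions beside flanking peaks were of all strengths, with medians slightly above those of regions without a flanking peak. The shared region nearest to a replicate 1 flanking peak had a median fold of 7.47 in replicate 1 (interval 7.15 to 7.79, quartiles 5.44 and 12.1) and of 7.70 in replicate 2 (7.44 to 8.01). A region counted once for each flanking peak it was nearest to. The region nearest to a replicate 2 flanking peak had medians of 7.34 (6.83 to 8.01) and 7.47 (6.94 to 8.28). The 14289 shared regions with no flanking peak had medians of 6.93 (6.84 to 6.98) and 7.23 (7.21 to 7.28). The intervals around replicate 1 flanking peaks thus lay above those of regions without, and those around replicate 2 flanking peaks overlapped them. With each region counted once, regions with a replicate 1 flanking peak had medians of 7.36 (7.13 to 7.75) and 7.64 (7.26 to 7.98). Of these, only the interval of the replicate 1 fold lay above that of regions without. Folds of 10 or more were seen at 32.2% of the regions nearest to replicate 1 flanking peaks (29.5% to 35.0%, replicate 1 fold) and at 37.4% of those nearest to replicate 2 flanking peaks (33.0% to 42.1%, replicate 2 fold). Among regions without a flanking peak the shares were 27.7% and 30.3%. The higher medians did not set flanking peaks apart from unmatched peaks just beyond the limit. At 2000 to 3000 bp the nearest shared region had a median fold of 7.32 in replicate 1 (6.70 to 7.79) and 7.72 in replicate 2 (6.77 to 8.26).

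Flanked regions became more frequent as shared regions became stronger. Of all 15872 shared regions, 1583 had at least 1 flanking peak, or 9.97% (9.52% to 10.4%). Ranked by the mean of their fold percentiles in both lists, the weakest quintile had 8.95% flanked (8.00% to 9.99%), then 9.45%, 9.51% and 10.2%, and the strongest quintile 11.7% (10.6% to 12.9%). The strongest quintile exceeded the weakest by 2.77 percentage points (1.27 to 4.27). By replicate 1 peaks alone the shares were 6.62% and 8.57%, a difference of 1.95 (0.648 to 3.26), and by replicate 2 peaks alone 2.49% and 3.59%, a difference of 1.102 (0.256 to 1.96). Replicate 2 peaks showed no steady rise, with 3.15%, 2.49% and 3.09% in the quintiles between. The width of the region moved with this. Regions in the weakest quintile had a median width of 359 bp and those in the strongest 652 bp, and by width the shares ran from 8.07% in the narrowest quintile to 12.5% in the widest. Among regions wider than the median of 453 bp, the weakest strength quintile had 10.1% flanked (8.02% to 12.7%), the next ones 11.4%, 10.9% and 9.80%, and the strongest 11.7% (10.6% to 12.9%), so there was no steady rise. Among the narrower ones the first 3 quintiles had 8.65% (7.62% to 9.81%), 8.75% and 8.65%, the next 11.2% of 1020 regions (9.39% to 13.3%) and the strongest 11.5% of only 131 regions (7.06% to 18.0%). The part of width in the trend with strength was not tested further.

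**Figure D4:**
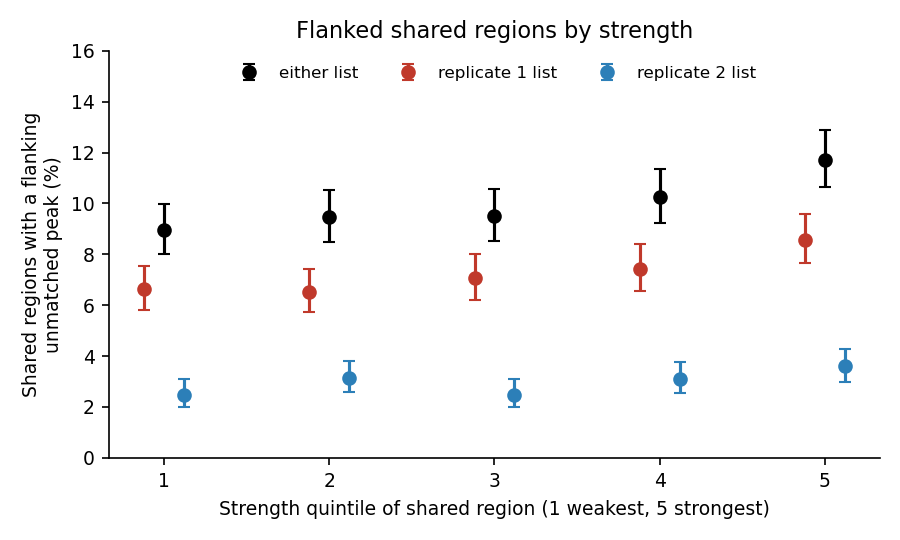
Percentage of shared regions with at least 1 flanking unmatched peak, by strength quintile of the region, counting flanking peaks of either list (black), of replicate 1 (red) or of replicate 2 (blue); bars are Wilson 95% intervals. The black points go from 8.95% in the weakest quintile to 11.7% in the strongest.

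Within a pair, the flanking peak was usually the weaker one, and its fold showed little relation to that of its neighbour. The shared region had a median of 1.75 times the fold of its replicate 1 flanking peak (quartiles 1.24 and 2.97) and 1.68 times that of its replicate 2 flanking peak (1.12 and 2.84). The flanking peak was the stronger of the pair in 117 of 1085 cases in replicate 1, or 10.8%, and in 78 of 433 in replicate 2, or 18.0%. Matching favours this order, because unmatched peaks had lower folds than matched ones and a shared region takes its highest fold. Unmatched peaks at 5000 to 10000 bp had median folds of 4.29 in replicate 1 and 4.73 in replicate 2. Their nearest shared regions had medians of 6.83 and 6.94 in the same lists. Across pairs the Spearman rho between the folds was −0.00593 in replicate 1 (1085 pairs) and −0.0667 in replicate 2 (433 pairs), given as a description since pairs share a list and depth and unmatched peaks span a narrow range of folds. Beside the weakest and the strongest quintile of shared regions, replicate 1 flanking peaks had median folds of 4.23 and 4.22, and replicate 2 flanking peaks 4.65 and 4.55. Median folds also differed little with distance, with values in replicate 1 of 4.21 within 500 bp and 4.27 at 1500 to 2000 bp, and in replicate 2 of 4.71 and 4.65.

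The balance of the replicates at the shared region was similar whichever list gave the flanking peak. The median log2 ratio of replicate 1 to replicate 2 summit pileup was 0.33 (interval 0.31 to 0.35) at the regions nearest to replicate 1 flanking peaks and 0.34 (0.31 to 0.37) at those nearest to replicate 2 flanking peaks. It was 0.32 (0.32 to 0.33) at regions with none, and the 3 intervals overlap.

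Most flanked regions had a single flanking peak. It was 1 at 1478 regions, 2 at 97 and 3 at 8. Flanking peaks came from replicate 1 alone at 1113 regions, from replicate 2 alone at 434 and from both lists at 36. Where a region had 2 or more, they stood on both sides at 46 of 105 regions. Seen from the flanking peaks, 1356 of 1518 had 1 shared region in reach and 150 had 2, with 9, 2 and 1 having 3, 4 and 5. Regions with 2 or more flanking peaks had a median replicate 1 fold of 8.44 (7.18 to 10.8) and a median width of 522 bp. Their median replicate 2 fold was 8.64 (7.07 to 11.2), an interval that overlaps that of regions without a flanking peak (7.21 to 7.28). Another shared region lay within 2000 bp of 20.9% of flanked regions (19.0% to 23.0%) and of 19.4% of the others (18.7% to 20.01%), by the replicate 1 summit.

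Few unmatched peaks of the lists stood near each other, partly because the rule keeps them apart. Unmatched peaks overlap no peak of the other list, so summits less than about a peak width apart were largely excluded in advance. Only 9 of 1085 replicate 1 flanking peaks, or 0.829%, had an unmatched replicate 2 peak with a summit within 500 bp, against 18 of 4166 farther peaks, or 0.432% (intervals 0.437% to 1.57% and 0.273% to 0.682%). Within 2000 bp the shares were 3.13% and 3.02%. For replicate 2 they were 1.62% and 1.02% within 500 bp, and 8.08% and 6.34% within 2000 bp (5.87% to 11.0% and 5.34% to 7.51%). The closest such summits beside a shared region were 254 bp apart, near the median widths of flanking peaks (277 bp in replicate 1 and 262 bp in replicate 2). The shares therefore do not measure how far the lists agree.

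The region with 3 flanking peaks and the highest rank was also the strongest of all shared regions, on chromosome 3 from 37825187 to 37826325, with folds of 76.2 in replicate 1 and 87.1 in replicate 2. Its flanking peaks all lay before its start. The replicate 1 list had one from 37823552 to 37823819 (fold 3.21, pileup 23). The replicate 2 list had one on each side of that peak, from 37823162 to 37823382 (3.59, pileup 14) and from 37824086 to 37824369 (3.64, pileup 13). The lists alternated there without overlapping. A second shared region stood beyond the end, from 37827469 to 37828168, with folds of 10.8 and 8.61.

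Next in rank came 3457023 to 3458179 on chromosome 11 (folds 20.8 and 27.0), followed by 3 replicate 1 peaks in a row, from 3458941 to 3459232, from 3459437 to 3459662 and from 3459937 to 3460172. Their folds were 3.78, 3.50 and 3.97, and replicate 2 had no peak between the shared region and another at 3460462 to 3460944 (folds 4.15 and 4.11). The same 3 peaks also flanked that weaker region, and both the second and the last of them lay nearer to it than to the stronger one. On chromosome 1 a run of shared regions from 55139412 to 55146966 was interspersed with replicate 1 peaks from 55140300 to 55140671 (fold 6.35), from 55141205 to 55141490 (3.63) and from 55144096 to 55144427 (4.45). The last of these had 5 shared regions in reach, with replicate 1 folds of 6.28 to 22.2. The same 3 peaks flanked both the region from 55142452 to 55143000 (11.0 and 11.5) and the one from 55141638 to 55142313 (9.10 and 11.96). The fifth in rank was 32886496 to 32887196 of chromosome 4 (8.44 and 7.51), whose flanking replicate 1 peaks had folds of 2.55, 4.23 and 5.88.

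**Figure D5:**
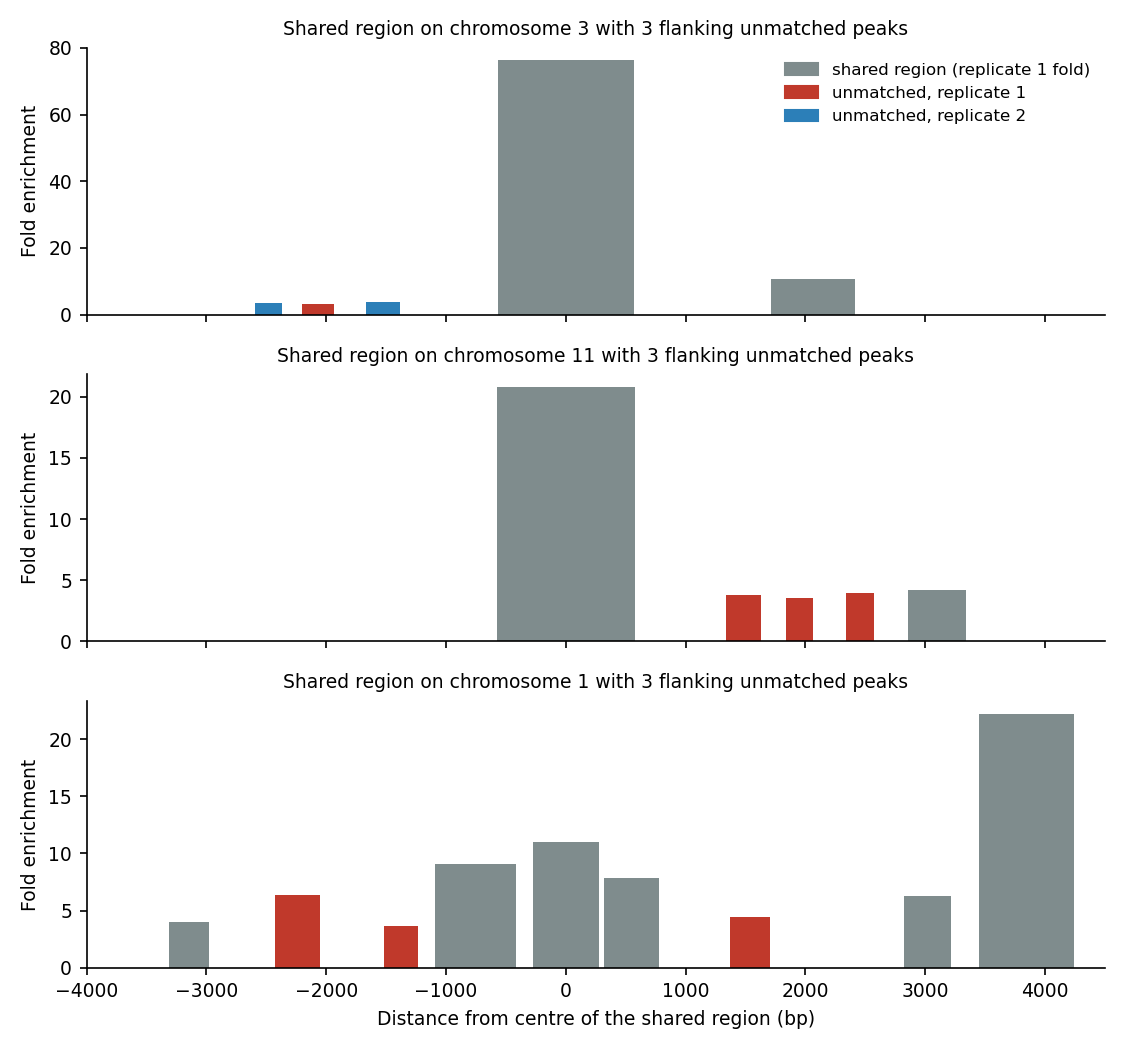
Fold enrichment of shared regions (grey, replicate 1 fold) and unmatched peaks (red for replicate 1, blue for replicate 2) around 3 shared regions with 3 flanking peaks each, on chromosomes 3, 11 and 1, drawn to scale by distance from the centre of the region. Unmatched peaks, with folds of 3.21 to 6.35, stand before the region on chromosome 3, beyond it on chromosome 11 and between shared regions on chromosome 1.

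Flanking peaks beside the other very strong shared regions were weak as well, as unmatched peaks mostly were wherever they lay. The 5 replicate 1 flanking peaks with the strongest neighbours lay on chromosomes 3, 10, 20, 5 and 13, beside regions with replicate 1 folds of 76.2, 61.9, 62.1, 60.4 and 62.8, and had folds of 3.21, 4.18, 4.13, 3.88 and 3.79. Of the corresponding replicate 2 peaks, one lay on chromosome 5 from 38328576 to 38328812 (fold 3.75), beside the region from 38326156 to 38327172 that also had a replicate 1 flanking peak from 38327782 to 38328017. Another was 34379049 to 34379397 of chromosome 11 (3.74), beside a region with a replicate 2 fold of 66.1. A further one was 45015195 to 45015421 of chromosome 13 (4.11), beside a region with a replicate 2 fold of 73.9.

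The strongest flanking peak of replicate 1 lay on chromosome 17 from 37882295 to 37882664, with a fold of 8.77 and a pileup of 42, 910 bp beyond a shared region with folds of 20.8 and 21.9. Chromosome 13 held those from 42498609 to 42499070 (fold 8.36), from 32176252 to 32176556 (7.95) and from 30471408 to 30471743 (7.75), and chromosome 6 the one from 1496501 to 1496905 (7.82). In replicate 2 the strongest lay on chromosome 3 from 42225023 to 42225340 (8.81, pileup 32). It was followed by a peak on chromosome 6 from 8106202 to 8106721 (8.52, pileup 39), which ended 7 bp before a shared region with folds of 8.41 and 4.90. In that pair the replicate 2 flanking peak was stronger than the replicate 2 part of the shared region. The remaining ones were 43486751 to 43487069 of chromosome 18 (7.48), 36056345 to 36056646 of chromosome 5 (7.36) and 33306425 to 33306757 of chromosome 11 (7.21).

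A small group stood on a high background, as did some of the other peaks, unmatched and matched. A local background over 5 times the lowest of the list was found at 7 replicate 2 flanking peaks and at 0 of the 1085 in replicate 1. That was 1.62% of flanking peaks in replicate 2 (0.785% to 3.30%), against 45 of 1956 farther ones, or 2.30% (1.72% to 3.06%). In replicate 1 it was found at 6 of 4166 farther ones, or 0.144%. Among matched peaks it was found at 33 of 15996 in replicate 2, or 0.206%, and at 36 of 15945 in replicate 1, or 0.226%. The folds of the 7 flanking peaks were 1.59 to 2.24 although pileups reached 208 fragments. Chromosome 12 held 2 of them, from 39188918 to 39189155 (fold 2.24, background 87.8) and from 39190580 to 39190856 (1.82, background 114), and chromosome 15 held 2 side by side, from 47404142 to 47404596 (1.92) and from 47404815 to 47405045 (2.17). The shared regions beside these 4 had folds of 1.47 to 1.93 as well. On chromosome 9, in contrast, the peak from 46396775 to 46397010 (fold 2.15, background 25.04) stood 491 bp before a shared region with folds of 31.2 and 23.7. The remaining ones, on chromosomes 15 and 18, had folds of 1.59 and 2.11 beside regions with replicate 2 folds of 9.79 and 6.41. These peaks were picked after their values were seen.

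Flanking peaks were spread over all 20 chromosomes. Their share of unmatched peaks had a mean of 19.8% ± 2.32 (SD, n = 20 chromosomes) and ran from 14.6% on chromosome 16 to 24.1% on chromosome 11. Per Mb of chromosome span they were most frequent on chromosome 11 (2.69), chromosome 17 (2.45) and chromosome 13 (2.38), and least on chromosome 16 (1.03). The same 3 chromosomes had the most shared regions per Mb, with 23.7, 21.1 and 25.4, against 13.5 on chromosome 16. The share of shared regions that were flanked had a mean of 9.93% ± 1.12 (SD, n = 20 chromosomes) and ran from 8.08% on chromosome 18 to 11.7% on chromosome 11. The shift to stronger neighbours was not uniform: flanked regions had the higher median replicate 1 fold on 16 of 20 chromosomes, but the higher median replicate 2 fold on only 11. Flanking peaks had a lower median fold than farther unmatched peaks on 12 chromosomes in replicate 1 and on 13 in replicate 2.

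Of the 1509 flanking peaks on chromosomes, 73.0% lay in the outermost 20% of the span at either end (70.7% to 75.2%), against 67.6% of farther unmatched peaks (66.5% to 68.8%) and 68.2% of shared regions. The difference between the unmatched sets was 4.37 percentage points in replicate 1 (1.32 to 7.30) and 7.45 in replicate 2 (2.57 to 12.0025). The rule favours places where shared regions are dense, so this difference cannot be told apart from the density of shared regions. The middle 20% held 5.24% of flanking peaks and 6.20% of farther ones.

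Peaks on either side of the 2000 bp limit had folds in the same range. In the last 100 bp inside it, the median fold was 4.38 over 39 replicate 1 peaks and 4.65 over 19 replicate 2 peaks. In the first 100 bp outside, 34 and 9 peaks had medians of 4.22 and 4.91. The replicate 1 peaks nearest to the limit had folds of 4.69, 5.71 and 3.91 at 2000, 1999 and 1998 bp, and 4.35, 7.13 and 3.20 at 2008, 2011 and 2013 bp. In replicate 2 they had 4.44, 4.27 and 4.54 at 2000, 1998 and 1996 bp, and 4.54, 5.61 and 4.54 at 2009, 2021 and 2023 bp.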

How the data were processed

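The submitters' processing notes name Bowtie 0.12.7 and MACS2. Version and settings of MACS2 and the genome build are not stated in labels or files. The deposited lists, 1 per ChIP biological replicate, hold for each peak a fold enrichment (a ratio over local background), −log10 p and −log10 q values and a score, all the authors' own; the deposited score was not used further. Input libraries gave no values of their own here, and the labels do not state how input entered the peak finding. The summit pileup and local background were recovered from the deposited fold and −log10 p with the Poisson formula that MACS2 is known to use, with 1 added to both terms of the fold; pileups came out whole, within 0.01, for 100.0% of peaks in both lists. Library totals are not used here, so depth is unknown. Coordinates count from 1. In a shared region the peak with the highest fold gave each list's values. Steps were tested on simulated data and run with Python 3.11.15, numpy 2.4.6, scipy 1.17.1 and pandas 2.3.3. The labels call the replicates biological; whether they came from separate plants could not be checked.

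The members and the rules for naming them were chosen with earlier results of these data known. Named were, per list, the 5 flanking peaks with the highest fold, the 5 with the strongest neighbouring region and the 3 on either side of the limit, and the 5 regions with the most flanking peaks. Ties among the 8 regions with 3 flanking peaks went to the stronger by mean fold percentile, so the named regions lean to strong ones. Planned motif and gene positions were left out, since no genome of the build was used. Alternatives varied the distance limit and measure, the overlap, the −log10 q minimum, high backgrounds, scaffolds and the list.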

Additional observations from a re-analysis of the deposited data

How the results depend on the processing

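Alternatives were run for 16 values only: the counts, shares and median folds of flanking peaks, of farther unmatched peaks and of shared regions. Of these 134 alternatives, 104 left a value within its counting interval or a count within 1.5 times, and 30 moved it further. Spacing, pairing by reach, chromosome position, proximity of the lists and pileup ratios were not recomputed. With a limit of 1000 bp there were 813 flanking peaks, 10.6% of unmatched peaks, and the flanked share of shared regions was 4.47% in the weakest and 6.33% in the strongest quintile. With 5000 bp there were 2760, or 36.1%, and the shares were 18.9% and 22.0%. With peaks of −log10 q of at least 5 only, 18.6% of unmatched peaks flanked a shared region. Leaving out the flanking peaks of 1 replicate gave 433 to 1085, 18.1% to 20.7% of unmatched peaks, and shares of 2.49% to 6.62% in the weakest and 3.59% to 8.57% in the strongest quintile. The settings reused the same lists and overlapping sets of peaks, so counts of settings are not independent evidence. The strongest quintile was above the weakest in 9 of 9 settings, and the nearest region had a higher median fold than regions without a flanking peak in 8 of 8 settings in each list. Flanking peaks had the lower median fold in 8 of 8 settings in replicate 2 but in 5 of 8 in replicate 1, where the medians were equal in the others (limits of 1000 and 5000 bp and the −log10 q minimum). The causes of these moves were not tested. No paired test was run, and pairs of flanking peak and neighbouring region were described only. ChIP and input could not be set against each other. Unknown depth and 1 list per replicate limit every comparison.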
